A study of Mus musculus with 10 samples.

Results

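The loci of 35 genes of the unfolded protein response and the secretory pathway were followed by ATAC-seq in 10 libraries of mouse bone marrow stromal cells. The genes were taken from a list of stress sensors, chaperones, degradation factors and transport proteins of the endoplasmic reticulum (ER), grouped by function. They are 35 of 21627 protein-coding genes placed on chromosomes 1 to 19 and X. A locus was the gene from end to end, widened by 10 kb in both directions, and its value was the number of ATAC-seq peak summits inside it. All 35 loci held at least 1 summit in every library, and 29 of them averaged 2 or more and entered the test.

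ATAC-seq uses a transposase that cuts accessible DNA, so a peak marks a stretch of open chromatin. It measures neither RNA nor protein, and a promoter can be open at a gene that is little transcribed. All mice were of strain C57BL/6J. The rMSC libraries (n = 3) came from cultured stroma that had received 5 genes by transduction, namely Xbp1, Klf7, Ostf1, Irf7 and Irf3. The control libraries (n = 3) came from stroma cultured alike and transduced with a control vector. Both cultures were seeded from CD45- Ter119- CD31- Scf-GFP(+) bone marrow stroma and grown with serum and FGF-basic. Scf-GFP-positive libraries (n = 2) came from the same gate, freshly sorted and not transduced, and Scf-GFP-negative libraries (n = 2) from the CD45- Ter119- CD31- cells without the reporter, likewise fresh. Scf-GFP reports stem cell factor, the niche factor that blood stem cells need. The labels give no age and do not state whether the replicates of a group were independent mice or dishes. The p-values therefore describe only how much these libraries vary, and that variation may be technical.

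The unfolded protein response adjusts a cell's folding and export capacity to the load of new secretory proteins. Unfolded protein in the ER activates 3 membrane sensors, encoded by Ern1 (IRE1, which splices Xbp1 mRNA), Atf6 (a transcription factor released by proteolysis) and Eif2ak3 (PERK, a kinase that slows translation and favours synthesis of Atf4). The factors made downstream bind promoters of chaperone and degradation genes. Stromal and bone-forming cells export collagen and niche factors, and Creb3l1 and Creb3l2, relatives of Atf6, are known for collagen and matrix secretion in mouse bone and cartilage. Xbp1, whose protein switches on many chaperone and degradation genes, was given to rMSC and is not among the 35. Its own locus held 2, 2 and 3 summits in rMSC, 3, 2 and 1 in control cultures, 2 and 2 in Scf-GFP-positive and 2 and 2 in Scf-GFP-negative stroma. These ranges overlap, and the Xbp1 locus passed in no comparison.

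The deposited lists held 66282 to 78489 peaks in rMSC, 48417 to 75376 in control cultures, 47679 and 68298 in Scf-GFP-positive and 46947 and 39936 in Scf-GFP-negative stroma. Each list was therefore reduced to its 39912 strongest peaks by the authors' −log10 p. Sequencing depth is unknown, so a locus without a peak may be open and undetected. The weakest peak kept had a −log10 q of 4.268 to 5.802 outside the Scf-GFP-negative libraries and 2.653 and 2.097 in them. Loci of mesenchymal marker genes summed to 48, 55 and 55 summits in rMSC, 83, 77 and 91 in control cultures, 86 and 71 in Scf-GFP-positive and 14 and 11 in Scf-GFP-negative stroma. The pan-haematopoietic list summed to 17 to 21 in rMSC, 21 or 22 in control cultures, 36 and 36 in Scf-GFP-positive and 54 and 66 in Scf-GFP-negative stroma, and the erythroid list to 8 or 9 in rMSC, 7 to 12 in control cultures, 22 and 20 in Scf-GFP-positive and 58 and 65 in Scf-GFP-negative stroma. Myeloid loci summed to 10 to 16 outside and 19 and 20 inside Scf-GFP-negative stroma, endothelial loci to 12 to 18 and to 25 and 28, and plasma cell loci to 9 to 14 over all libraries. Of the plasma cell markers, Irf4 had no summit in any library, whereas Prdm1 held 2 to 5 and Sdc1 1 to 5 throughout.

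The promoters carry the sequence through which this response is best known, so the matches are shown first. The ER stress response element joins CCAAT, 9 bases of any kind and CCACG, and was searched on both strands of RefSeq promoters (GRCm38.p6, from 250 bases before to 50 bases after the gene start). RefSeq promoters were matched for 29 of the 35 genes. Sec61a1, Atf6, Creb3l1, Hyou1, Manf and Derl1 are the others. The element was found in 9 of the 29 genes (31.0%), against 39 of all 32619 promoters (0.12%). The first share counts genes, which have 31 promoters here, and the 39 include the matches in these genes. Because the element is known from this response, the contrast is a description and no test. Each match is printed on the strand that carries CCAAT, 5′ to 3′, with the CCAAT and CCACG parts in capitals. Positions count from the gene start on the strand of the gene, with the start as 0.

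Hspa5, positions -65 to -47: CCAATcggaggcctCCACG
Hsp90b1, positions -212 to -194: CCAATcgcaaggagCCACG
Hsp90b1, positions -107 to -89: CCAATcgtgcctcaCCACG
Dnajc3, positions -105 to -87: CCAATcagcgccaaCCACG
Creld2, positions -126 to -108: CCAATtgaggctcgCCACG
Calr, positions -162 to -144: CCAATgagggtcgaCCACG
Canx, positions -145 to -127: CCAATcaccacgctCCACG
Pdia6, positions -98 to -80: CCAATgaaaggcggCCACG
Syvn1, positions -44 to -26: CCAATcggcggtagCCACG
Derl3, positions -156 to -138: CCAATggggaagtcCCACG

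These genes are chaperones (Hspa5, Hsp90b1, Dnajc3, Creld2), folding enzymes and lectins (Calr, Canx, Pdia6) and degradation factors (Syvn1, Derl3). The 9 bases between the fixed parts differ in every match. The related element II, ATTGG, 1 base and CCACG, was found in 12 of 32619 promoters (0.0368%), and 2 of these belong to the list. Herpud1, a degradation factor of the ER membrane, has ATTGGgCCACG and Dnajb11, a co-chaperone of Hspa5, ATTGGcCCACG. The amino acid response element bound by Atf4 (TGATG, 1 base, AA) is common, at 3.87% of promoters, and occurred in Herpud1 and Trib3. A match describes the letters and shows no binding.

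Whole upstream sequences are given for 6 element-bearing promoters that were open in every library, the first by name, and for Derl3, added because its promoter was not. Each runs 250 bases up to the base before the gene start, on the strand of the gene, and capitals mark the element (its reverse complement where it lies on the other strand).

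Hspa5 (chr2:34771840-34772089, plus strand): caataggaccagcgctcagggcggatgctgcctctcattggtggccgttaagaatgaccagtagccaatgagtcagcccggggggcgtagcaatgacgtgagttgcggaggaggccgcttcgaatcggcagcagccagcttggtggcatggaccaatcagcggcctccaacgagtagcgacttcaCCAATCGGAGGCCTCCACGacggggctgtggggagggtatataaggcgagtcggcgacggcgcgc
Hsp90b1 (chr10:86705445-86705694, minus strand): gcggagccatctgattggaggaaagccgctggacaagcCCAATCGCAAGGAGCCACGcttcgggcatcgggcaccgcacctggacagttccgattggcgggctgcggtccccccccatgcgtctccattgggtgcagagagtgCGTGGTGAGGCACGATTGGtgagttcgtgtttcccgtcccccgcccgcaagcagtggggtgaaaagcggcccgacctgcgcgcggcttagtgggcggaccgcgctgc
Dnajc3 (chr14:118937682-118937931, plus strand): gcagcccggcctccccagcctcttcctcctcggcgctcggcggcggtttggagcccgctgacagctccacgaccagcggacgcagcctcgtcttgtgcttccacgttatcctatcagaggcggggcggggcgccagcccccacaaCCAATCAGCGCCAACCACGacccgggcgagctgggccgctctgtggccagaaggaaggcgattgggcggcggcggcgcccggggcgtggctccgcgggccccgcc
Creld2 (chr15:88819396-88819645, plus strand): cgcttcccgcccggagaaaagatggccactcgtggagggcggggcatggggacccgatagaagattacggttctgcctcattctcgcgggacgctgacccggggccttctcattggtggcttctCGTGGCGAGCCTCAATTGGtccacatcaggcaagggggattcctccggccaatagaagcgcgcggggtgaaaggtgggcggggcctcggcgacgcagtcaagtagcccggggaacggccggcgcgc
Calr (chr8:84846932-84847181, minus strand): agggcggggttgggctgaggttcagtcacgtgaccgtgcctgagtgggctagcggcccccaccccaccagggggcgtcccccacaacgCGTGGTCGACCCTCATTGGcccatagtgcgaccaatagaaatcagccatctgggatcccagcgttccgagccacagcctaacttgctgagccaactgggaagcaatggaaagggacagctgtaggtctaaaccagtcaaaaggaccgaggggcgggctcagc
Canx (chr11:50325674-50325923, minus strand): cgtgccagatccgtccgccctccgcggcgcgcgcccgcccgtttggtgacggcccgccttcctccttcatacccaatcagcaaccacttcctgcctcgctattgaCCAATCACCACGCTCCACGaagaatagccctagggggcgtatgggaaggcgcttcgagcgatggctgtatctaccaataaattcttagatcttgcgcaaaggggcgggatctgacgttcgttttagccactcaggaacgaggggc
Derl3 (chr10:75893148-75893397, plus strand): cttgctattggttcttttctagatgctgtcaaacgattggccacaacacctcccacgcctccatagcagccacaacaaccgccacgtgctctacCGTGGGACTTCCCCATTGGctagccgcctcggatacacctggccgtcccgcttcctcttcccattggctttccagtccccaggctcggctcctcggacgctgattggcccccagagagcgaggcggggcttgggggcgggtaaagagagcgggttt

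Promoters of the response were open in nearly every library, whether the cells were transduced, cultured or fresh. Of the 29 genes with a RefSeq promoter, 28 had a peak summit within 1 kb of the start in all 10 libraries, against 6961 of 17273 protein-coding genes (40.3%). In single libraries, 28 or 29 of the 29 genes (96.6% to 100.0%) and 49.8% to 56.9% of all genes had such a peak. A peak covered every ER stress response element in all 10 libraries, apart from that of Derl3, which was covered in 6. The summit nearest to the Pdia6 element lay 1 to 116 bases from its middle, and that nearest to the Hspa5 element 41 to 192 bases. Of the 6 genes without a RefSeq promoter, 5 had a summit within 1 kb of a gene end in all 10 libraries, and Creb3l1 in 5.

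Several of these promoter peaks stood near the top of their lists when ranked by the authors' −log10 p. The promoter peak of Hsp90b1, which encodes the ER form of the Hsp90 chaperone, had a median rank within the top 0.142% of a list. Those of Sel1l, the adaptor of the Hrd1 ubiquitin ligase, and of Eif2ak3 followed at 0.183% and 0.205%. Hspa5, which encodes BiP, the main Hsp70 chaperone of the ER, ranked at 0.969% (0.447% to 3.17%). The promoter peak of Ddit3, which encodes the stress factor CHOP, was the widest of the 35, with a median of 3560 bases and a range of 3011 to 4666 bases. At the lower end stood Edem2, a mannosidase-like degradation factor (15.0%, 485 bases), and the ends of Atf6 (18.6%) and Creb3l1 (45.2%, 380 bases). These are ranks of single peaks within a list and carry no test between groups.

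The exception was Derl3, a derlin of ER-associated degradation that is abundant in plasma cells and other secretory cells. A peak at the Derl3 start (chromosome 10, 75892843 to 75893681) was present in 2 of 3 rMSC, in 0 of 3 control, in 2 of 2 Scf-GFP-positive and in 2 of 2 Scf-GFP-negative lists. The authors' −log10 p was 11.3 and 7.06 in rMSC replicates 1 and 3, 38.73 and 46.49 in Scf-GFP-positive stroma, with 43.72 and 60.36 in Scf-GFP-negative stroma. The result was the same with all deposited peaks, since no peak of the full control lists lay there either. The start peak was thus listed in every fresh library and in no control library, and the rMSC lists were divided. A second region of the Derl3 locus, 5754 bases after the start and inside the neighbouring Smarcb1 gene (75897961 to 75899800), ordered the groups differently. Its −log10 p was 100.63, 86.68 and 83.38 in rMSC, 58.0, 62.79 and 58.63 in control cultures and 13.52 and 32.79 in Scf-GFP-positive stroma, with no peak in either Scf-GFP-negative list. Because the values come from separate lists they are descriptions, and the rMSC lists hold a larger share of peaks on chromosome 10 (given below with Ddit3).

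**Figure D1:**
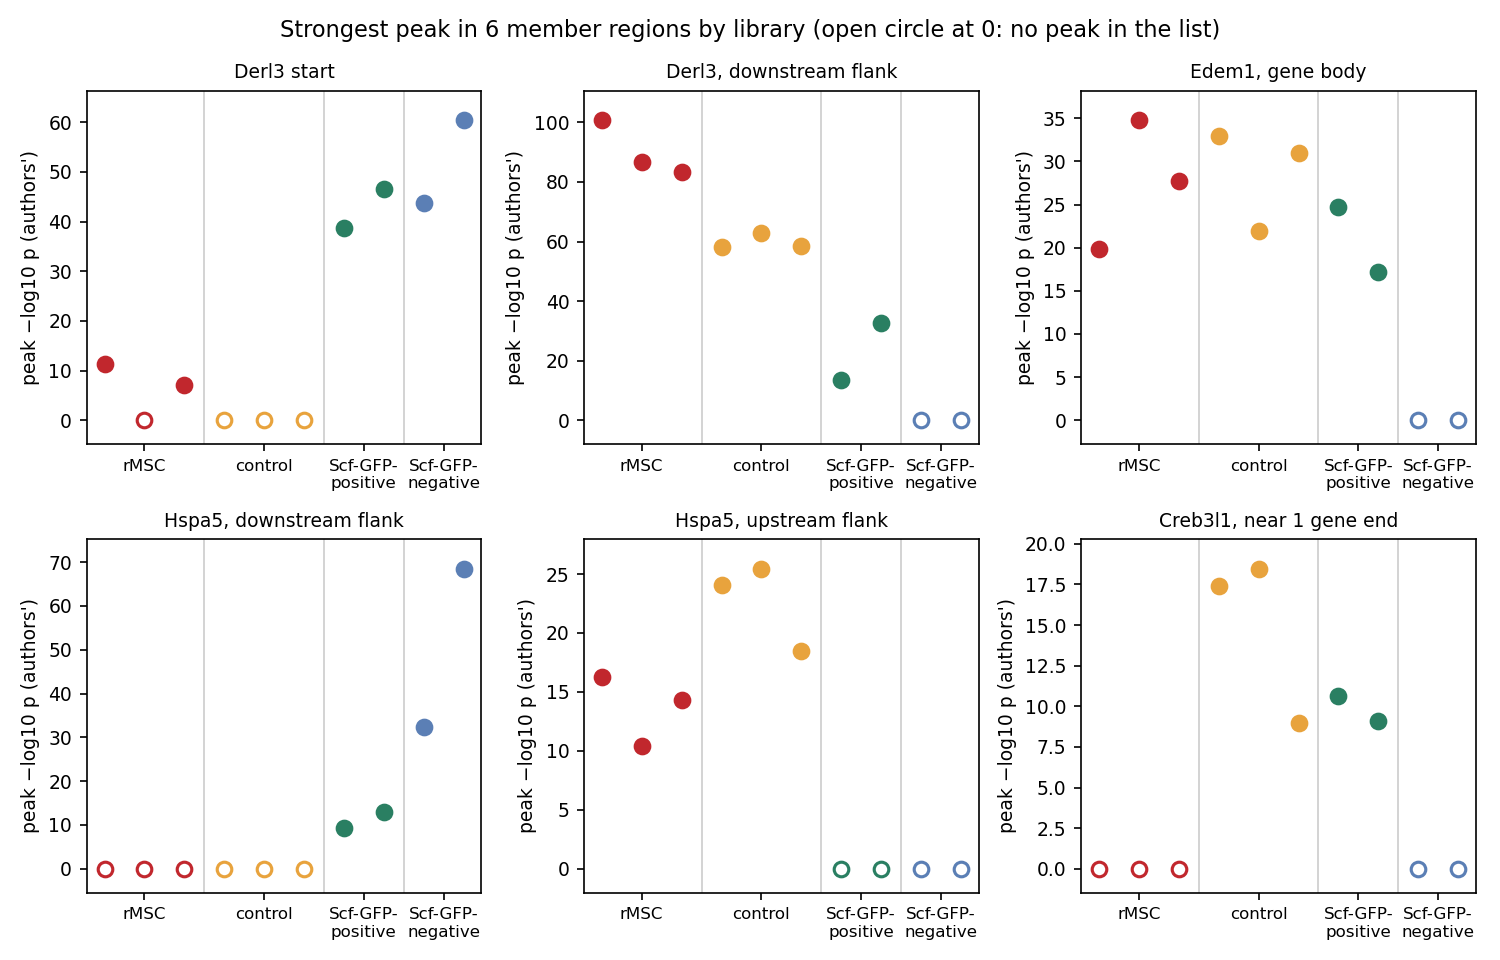
The authors' −log10 p of the strongest peak in 6 regions of the Derl3, Edem1, Hspa5 and Creb3l1 loci, by library, in lists of equal size; open circles at 0 mark lists without a peak there. The Derl3 start has a peak in every Scf-GFP-positive and Scf-GFP-negative list, in 2 of 3 rMSC lists and in no control list, whereas the 2 Hspa5 flanks and the Derl3 flank separate other groups.

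Across the whole loci, 265 merged regions held at least 1 peak in some library. Of these, 48 were open in all 10 lists (18.1%, against 7.76% of 119543 regions genome-wide) and 113 in a single list (42.6%, against 43.9%). The constant regions were mostly starts. Among the 48, 28 lay at the start of a listed gene and 19 in flanks, and 12 lay at the start of another gene. The 6 genes without a RefSeq promoter have no start in this count. Regions at a gene end of Atf6 and of Derl1, open in all 10 lists, therefore stand among the 19 flanks. Of 117 regions inside gene bodies away from the start, 1 was open in all lists. The number of summits in the 35 loci was 103, 114 and 93 in rMSC, 111, 109 and 112 in control cultures, 110 and 95 in Scf-GFP-positive and 131 and 140 in Scf-GFP-negative stroma. In these equal lists the cultured and the Scf-GFP-positive libraries overlapped, and both Scf-GFP-negative libraries lay above them all. With all deposited peaks the numbers were 162, 174 and 168 in rMSC and 131, 168 and 181 in control cultures. They were 127 and 151 in Scf-GFP-positive and 144 and 140 in Scf-GFP-negative stroma, so the order did not hold.

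The remaining loci held few summits in all 10 libraries. Hyou1, an Hsp70-like chaperone, held 2 or 3 summits, Sdf2l1, a component of ER chaperone complexes, 1 to 3, Dnajb11 1 to 3 and Pdia4, a disulfide isomerase, 2 to 4. Pdia6, another isomerase, held 1 to 4, Derl2, a derlin, 2 to 5, Sel1l 1 to 4 and Edem3, a mannosidase-like factor, 1 to 3. Edem3 was below the filter, and none of the other 7 loci was called in any comparison.

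**Figure D2:**
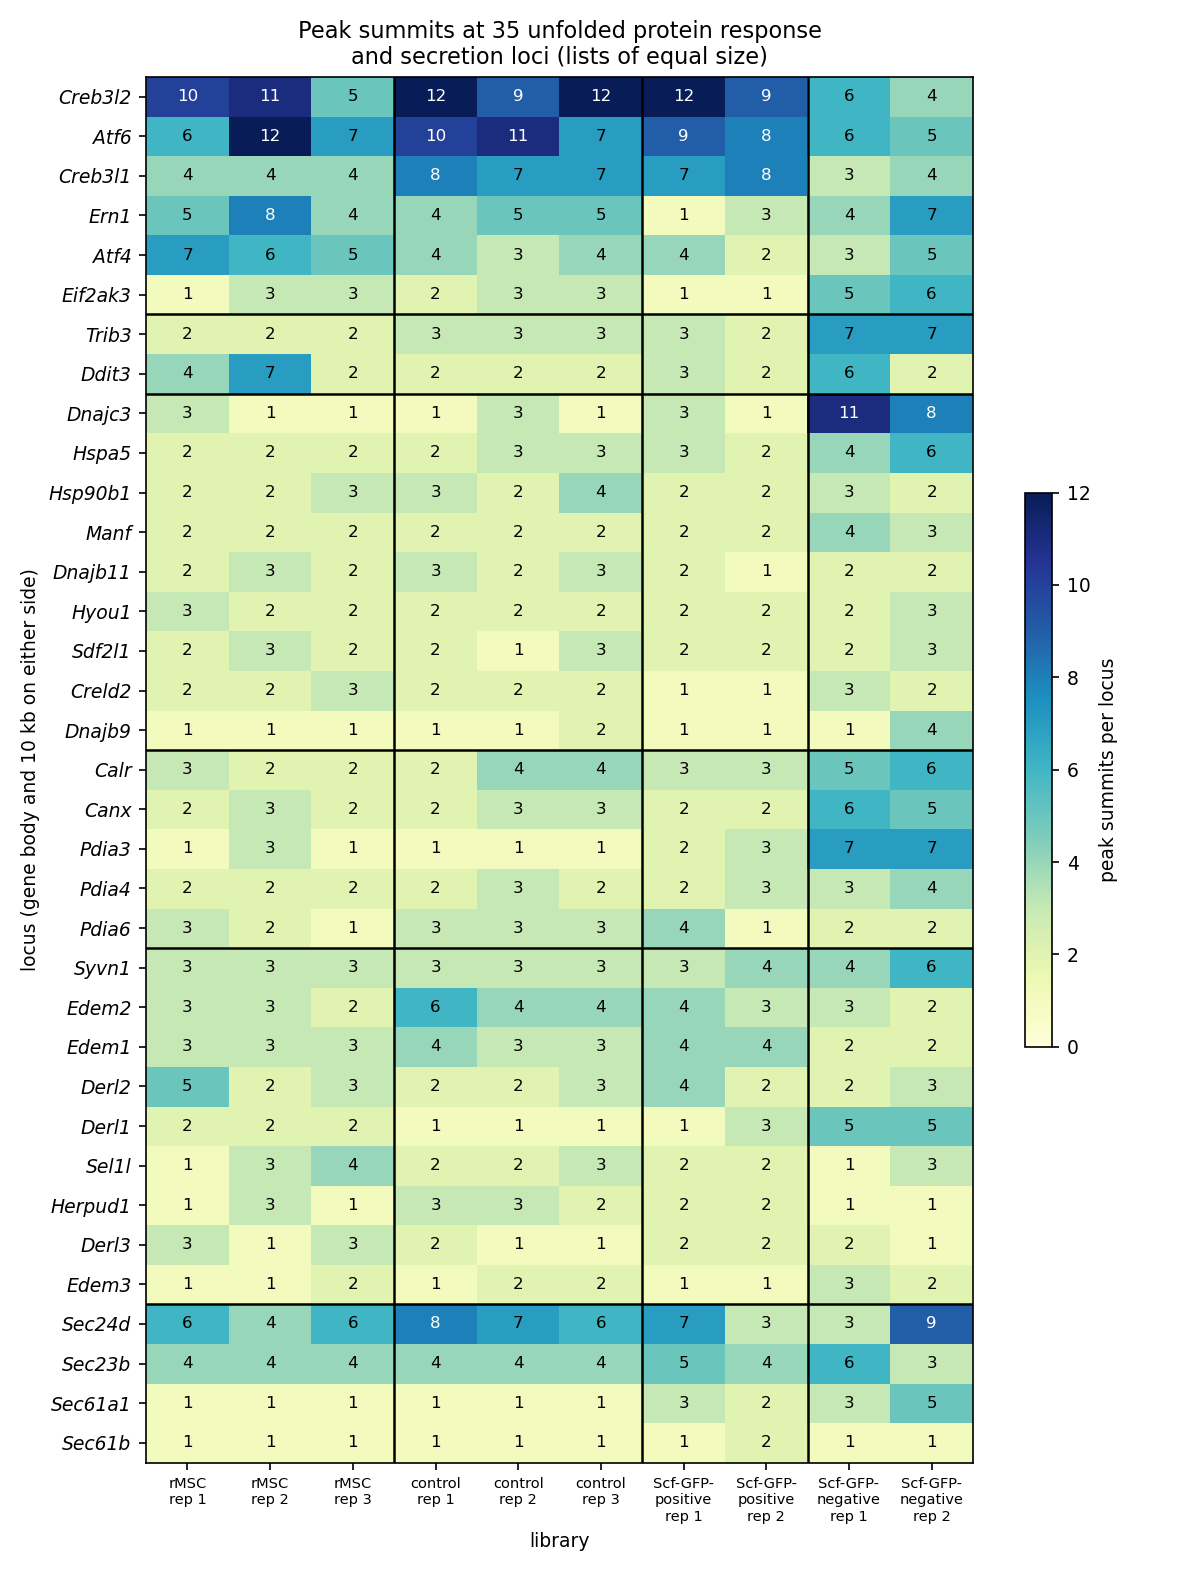
Peak summits at each of the 35 loci (rows, grouped by role with lines between groups) in each library (columns, rMSC, control, Scf-GFP-positive, Scf-GFP-negative), in lists of equal size. Counts of 1 to 4 fill most of the map, and counts above 8 occur at Creb3l2, Atf6, Sec24d and, in a Scf-GFP-negative column, Dnajc3.

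The first comparison sets cultures given the 5 factors, Xbp1 among them, against cultures given the control vector. In rMSC 1 of 29 tested loci passed. Creb3l1 had fewer summits, and none had more. Genome-wide, 1.44% of 9094 tested loci had more summits and 1.13% had fewer (limma with Benjamini-Hochberg adjustment over all tested loci, threshold 0.05, here and below). At an unadjusted p below 0.05, 5 of the 29 differed. The like share of all tested loci is not given, so this count shows neither excess nor lack. The median log2 difference was -0.12 over the 29 loci and 0.00 over all tested loci.

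Among the sensors and transcription factors, Creb3l1 (chromosome 2, 91982328 to 92024170), an ER-membrane transcription factor needed by mouse osteoblasts to secrete collagen, had 4, 4 and 4 summits in rMSC and 8, 7 and 7 in control cultures. The groups did not overlap, and rMSC was lower by a log2 difference of -0.80 ± 0.12 on the log2(summits + 0.5) scale (SE, n = 3 and 3, limma adjusted p = 0.0288). The same locus held 7 and 8 summits in Scf-GFP-positive stroma, so the control cultures were close to the fresh cells and rMSC was lower than both. The call was lost without any of the 6 culture libraries (adjusted p = 0.0659 to 0.0863), with flow cell as a term (0.0508) and with equal chromosome totals (0.0657). With all deposited peaks the difference was -0.36 (adjusted p = 0.492), and with the replicate number as a block none of the 29 loci was called. Of the 2 Creb3l1 regions open in all control and no rMSC lists, 1 lies in the gene body (92006890 to 92007646) and was also listed in 1 Scf-GFP-positive and both Scf-GFP-negative libraries. The other covers the upper end of the gene (92023192 to 92024735), where all control and Scf-GFP-positive lists and no rMSC or Scf-GFP-negative list held a peak. In the full lists the rMSC libraries had peaks there too, with a −log10 p of 8.18, 6.15 and 4.51, against 17.42, 18.45 and 8.95 in control cultures.

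The 3 sensors were not called. Atf6 had 6, 12 and 7 summits in rMSC and 10, 11 and 7 in control cultures (log2 difference -0.19 ± 0.27, adjusted p = 0.769). Ern1 had 5, 8 and 4 in rMSC and 4, 5 and 5 in control cultures (0.21 ± 0.37, adjusted p = 0.832), and Eif2ak3 1, 3 and 3 in rMSC and 2, 3 and 3 in control cultures (-0.25 ± 0.33, adjusted p = 0.760). These ranges overlapped. Atf4, the factor translated when PERK is active, held 7, 6 and 5 summits in rMSC and 4, 3 and 4 in control cultures, without overlap, and did not pass (0.64 ± 0.27, adjusted p = 0.272). Creb3l2 had 10, 11 and 5 in rMSC and 12, 9 and 12 in control cultures (-0.39 ± 0.31, adjusted p = 0.596).

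Of the stress outputs, Ddit3 had 4, 7 and 2 summits in rMSC and 2, 2 and 2 in control cultures (0.81 ± 0.46, adjusted p = 0.402). With all deposited peaks the counts were 8, 11 and 10 in rMSC and 3, 3 and 4 in control cultures, which do not overlap, with a log2 difference of 1.41 ± 0.34 and an adjusted p of 0.114. Trib3, a pseudokinase induced by CHOP and Atf4, had 2, 2 and 2 in rMSC and 3, 3 and 3 in control cultures in the equal lists (adjusted p = 0.103) and 5, 5 and 6 in rMSC and 3, 3 and 3 in control cultures in the full lists (0.73 ± 0.21, adjusted p = 0.170), so its order turned with the list used. Creld2, an ER protein of the stress response, and Derl1, a derlin, were also apart in the full lists. Creld2 had 5, 4 and 6 summits in rMSC and 2, 2 and 3 in control cultures (adjusted p = 0.247), and Derl1 3, 3 and 3 in rMSC and 1, 2 and 1 in control cultures (adjusted p = 0.172). Ddit3 lies on chromosome 10 and Creld2, Derl1 and Atf4 on chromosome 15, and these chromosomes held more of all rMSC peaks. Chromosome 10 took 7.62% to 9.56% of the full lists in rMSC and 5.86% to 6.00% in control cultures, and chromosome 15 took 6.03% to 7.0% in rMSC and 4.39% to 4.46% in control cultures. The part of these shares in the locus counts was not tested.

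Chaperones showed small differences with overlapping groups. Hspa5 had 2, 2 and 2 summits in rMSC and 2, 3 and 3 in control cultures (-0.32 ± 0.21, adjusted p = 0.475). Hsp90b1 had 2, 2 and 3 in rMSC and 3, 2 and 4 in control cultures (-0.28 ± 0.25, adjusted p = 0.639). Dnajb9, an Hspa5 co-chaperone and a known Xbp1 target, was below the filter with 1 summit in each rMSC library and 1, 1 and 2 in control cultures. None of the 8 tested chaperones, 5 folding enzymes and lectins, 6 degradation factors or 2 transport genes passed in either direction. Edem2 had 3, 3 and 2 summits in rMSC and 6, 4 and 4 in control cultures, without overlap (-0.70 ± 0.23, adjusted p = 0.161). Herpud1, with 1, 3 and 1 in rMSC and 3, 3 and 2 in control cultures, and Derl3, with 3, 1 and 3 in rMSC and 2, 1 and 1 in control cultures, fell below the filter. Sec61a1 and Sec61b, subunits of the translocation channel, held 1 summit in each of the 6 culture libraries, Sec23b, a COPII coat protein, 4 and Syvn1, the Hrd1 ubiquitin ligase, 3. For 110 further genes of the response and of secretion, 72 were tested, and 0 had more and 0 had fewer summits (median log2 difference 0.04).

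In the 35 loci 2 regions were open in all rMSC and no control lists (5.47% of 68536 regions genome-wide met this rule) and 10 in all control and no rMSC lists (6.06%). Here and below, such shares are of regions open in any library of either group. The like share within the 35 loci is not given, so the counts show neither excess nor lack. The rMSC regions lay inside Atf6 (170731905 to 170732919) and 2435 bases before the Ern1 start (106490028 to 106490468), and neither group of fresh libraries had them. In the full lists both were also present in control cultures, in 3 of 3 lists at Atf6 and in 2 of 3 at Ern1, and the 4 regions then open in all rMSC and no control lists belonged to Creld2, Ddit3, Edem2 and Sec24d. The control regions belonged to Creb3l1, Sec24d and Edem2 with 2 each and to Creb3l2, Dnajb11, Hsp90b1 and Trib3. By mean −log10 p over all lists with a peak, the first lay in the Hsp90b1 flank at the start of the neighbouring Ttc41 gene (86711958 to 86712746, 18.67, in the 3 control lists), where 1 rMSC library had a peak in its full list. Next came 2 regions of the COPII cargo adaptor Sec24d on chromosome 3 (123256065 to 123257165 and 123338670 to 123339294), of which the second was in the control lists alone, with equal and with full lists. The first of them had a −log10 p of 24.09, 21.89 and 18.46 in the control lists and lower values in 3 fresh lists.

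**Figure D3:**
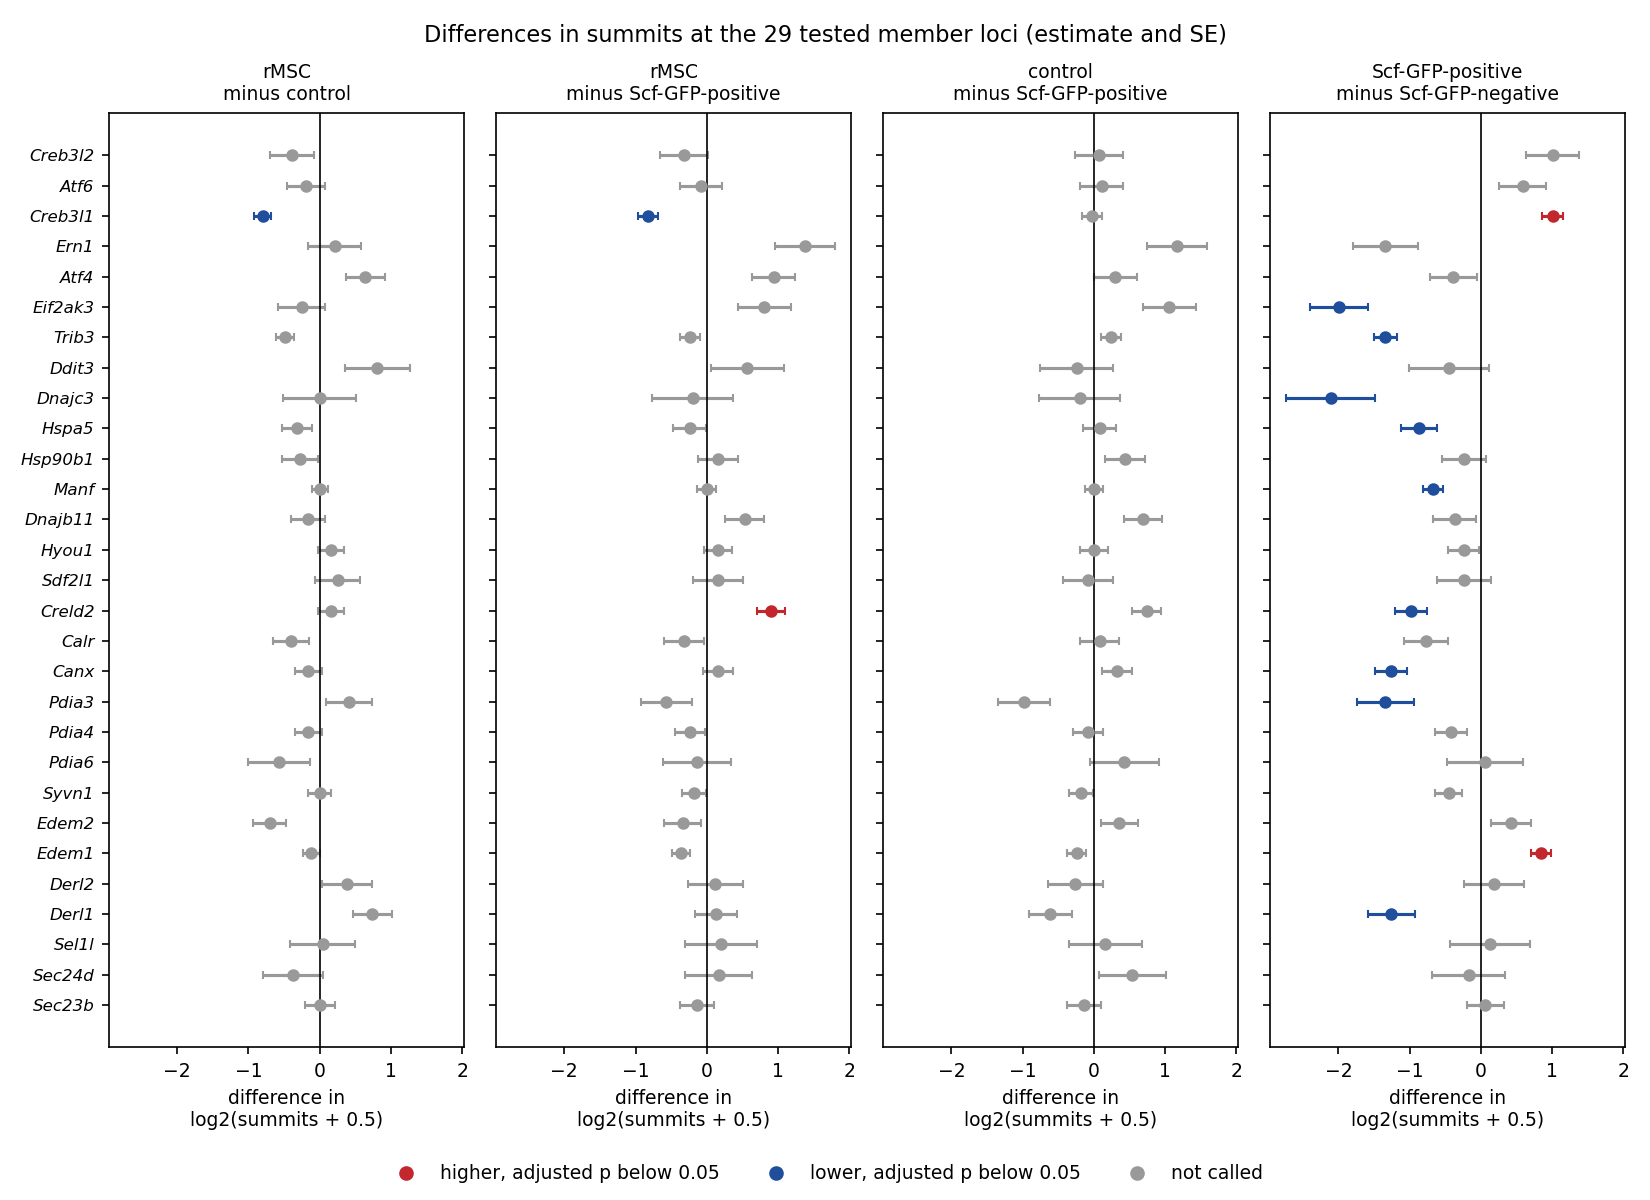
Difference in log2(summits + 0.5) with its SE at the 29 tested loci in the 4 comparisons, red and blue where the locus was higher or lower at an adjusted p below 0.05, grey otherwise. Few loci are coloured among the 3 panels with cultures, and 11 are coloured in Scf-GFP-positive minus Scf-GFP-negative stroma, 9 of them blue.

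Set against the fresh Scf-GFP-positive stroma that seeds the cultures, rMSC differed at 1 locus in each direction, Creld2 with more and Creb3l1 with fewer summits. Genome-wide 7.74% of loci had more and 7.11% fewer. The median log2 difference was 0.00 over the 29 loci and over all loci. This comparison shares the rMSC libraries with the one before and the fresh libraries with those that follow.

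Creb3l1 had 4, 4 and 4 summits in rMSC and 7 and 8 in Scf-GFP-positive stroma (-0.83 ± 0.14, n = 3 and 2, adjusted p = 0.0109). The call held without each single library, and was lost with all deposited peaks (adjusted p = 0.0992), with a −log10 q of at least 5 (-0.42, adjusted p = 0.134) and with equal chromosome totals (-0.59, adjusted p = 0.0695). Creld2 (chromosome 15, 88819646 to 88826681) held 2, 2 and 3 in rMSC, against 1 and 1 in Scf-GFP-positive stroma (0.90 ± 0.20, adjusted p = 0.0262). Its groups did not overlap, but the difference was 0.42 with equal chromosome totals (adjusted p = 0.319), and the call was lost without rMSC replicate 3 (adjusted p = 0.0517) or either Scf-GFP-positive library (0.101 and 0.0949). Chromosome 15 held 6.5% to 6.77% of the equal rMSC lists and 4.29% and 4.30% of the Scf-GFP-positive ones.

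Ern1 had 5, 8 and 4 in rMSC and 1 and 3 in Scf-GFP-positive stroma, without overlap (1.38 ± 0.42, adjusted p = 0.0671), and Atf4 7, 6 and 5 in rMSC and 4 and 2 in Scf-GFP-positive stroma (0.94 ± 0.30, adjusted p = 0.0792). Eif2ak3 had 1, 3 and 3 in rMSC and 1 and 1 in Scf-GFP-positive stroma (0.81 ± 0.37, adjusted p = 0.191). With all deposited peaks Eif2ak3 held 5, 4 and 5 in rMSC and 1 and 2 in Scf-GFP-positive stroma and passed (1.41 ± 0.30, adjusted p = 0.0192). Ddit3 (0.57, adjusted p = 0.510), Hspa5 (-0.24, adjusted p = 0.536), Hsp90b1 (0.16, adjusted p = 0.754), Atf6 (-0.08, adjusted p = 0.903) and Creb3l2 (-0.32, adjusted p = 0.582) did not pass. Of the 72 further pathway loci, 4 had more summits and 1 had fewer (genome-wide 7.74% and 7.11%). Ero1a, the oxidase that recharges disulfide isomerases, averaged 3.0 in rMSC and 1.0 in Scf-GFP-positive stroma (1.22, adjusted p = 0.00683), and Sec63, a translocon partner, 6.0 in rMSC and 1.5 in Scf-GFP-positive stroma (1.74, adjusted p = 0.00693).

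In the control cultures against Scf-GFP-positive stroma, 0 of 29 loci passed in limma. The genome-wide shares that passed were 5.8% with more and 6.25% with fewer summits. At an unadjusted p below 0.05, 5 of the 29 differed, again without a like share of all tested loci. Creld2 came closest, with 2 summits in each control library and 1 and 1 in Scf-GFP-positive stroma (0.74 ± 0.20, adjusted p = 0.0534). Ern1 had 4, 5 and 5 in control cultures and 1 and 3 in Scf-GFP-positive stroma (1.17 ± 0.42, adjusted p = 0.116), and Eif2ak3 had 2, 3 and 3 in control cultures and 1 and 1 in Scf-GFP-positive stroma (1.06 ± 0.37, adjusted p = 0.110). Both were without overlap. Pdia3, a disulfide isomerase that works with calnexin, had 1, 1 and 1 in control cultures and 2 and 3 in Scf-GFP-positive stroma (-0.98 ± 0.36, adjusted p = 0.126). Creb3l1, with 8, 7 and 7 in control cultures and 7 and 8 in Scf-GFP-positive stroma, had a log2 difference of -0.03 ± 0.14. Of the 72 further pathway loci 4 had more and 1 had fewer summits, among the first Ero1a again (1.06, adjusted p = 0.0139).

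Below the summit filter, Sec61a1 stood apart in the equal lists. It held 1 summit in each rMSC and each control library and 3 and 2 in Scf-GFP-positive stroma, with 3 and 5 in Scf-GFP-negative stroma. In the fit without a filter the log2 difference from Scf-GFP-positive stroma was -0.98 ± 0.20 in rMSC (adjusted p = 0.0239) and in control cultures (adjusted p = 0.0280). With all deposited peaks Sec61a1 held 2, 3 and 3 summits in rMSC, 1, 1 and 4 in control cultures and 3 and 3 in Scf-GFP-positive stroma, which overlap.

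Of regions in the 35 loci, 12 were open in all rMSC and no Scf-GFP-positive lists (12.8% of 75732 genome-wide) and 10 the reverse (11.3%). For control cultures 18 were open in all of them and no Scf-GFP-positive list (11.7% of 74756) and 7 the reverse (10.0%). At Hspa5 (chromosome 2, 34772090 to 34776529) peaks in 2 flanking regions differed between cultures and fresh stroma, while the promoter peak was present in all 10 libraries. Whether either region acts on Hspa5 was not tested. A region 1842 bases before the start (34769973 to 34770558) had a peak in all 6 culture lists and in none of the 4 fresh lists, with a −log10 p of 16.3, 10.45 and 14.35 in rMSC and 24.09, 25.43 and 18.46 in control cultures. A region beyond the gene end, 11147 bases after the start and inside Rabepk (34782895 to 34783616), had a peak in no culture list and in all 4 fresh lists, with 9.23 and 13.0 in Scf-GFP-positive and 32.27 and 68.42 in Scf-GFP-negative stroma. The Hspa5 counts themselves overlapped between cultures and Scf-GFP-positive stroma. Other regions open in all 6 cultures and no fresh list lay in Sec24d (123329109 to 123329699, mean −log10 p 32.43) and at 2 places in Creb3l1 (92004513 to 92005054 and 92016868 to 92017496, mean −log10 p 28.79 and 21.22). In the full lists these 3 regions were also listed in 1 Scf-GFP-positive library, and both Hspa5 flanks kept their pattern. The same pattern in the equal lists held at 2 places in Atf6 (170741463 to 170742284 and 170766932 to 170767587) and at 1 in Ern1 (106409865 to 106410560).

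The last comparison sets the Scf-GFP-positive niche stroma against the cells without the reporter. It had the largest share of calls of the 4 comparisons, among the 29 tested loci (37.9%) as among all tested loci (30.3%). With only the 2 groups in the fit, both shares were 10.3%. Of 29 tested loci, 2 had more summits in Scf-GFP-positive stroma (genome-wide 13.5%) and 9 had fewer (16.8%). The median log2 difference was -0.39 over the 29 loci and -0.22 over all tested loci. The matrix secretion factor Creb3l1 and the degradation factor Edem1 were higher, and 4 chaperones, 2 folding genes, Eif2ak3, Trib3 and Derl1 were lower. With all deposited peaks 4 of 29 passed, 2 in each direction (13.8%, against 19.8% of all loci), and without Scf-GFP-negative replicate 2 the count was 6. The blood marker sums given above were higher in the same Scf-GFP-negative libraries, with Ptprc (CD45) at 0 and 0 summits in Scf-GFP-positive and 7 and 5 in Scf-GFP-negative stroma, in a gate set to exclude CD45+ cells. Ptprc also held 2 summits in each culture library. Of 10 tested pan-haematopoietic loci, Ptprc, Ikzf1 and Lcp1 were lower in Scf-GFP-positive stroma and none was higher, and Fli1 held 9 and 8 in Scf-GFP-positive and 2 and 6 in Scf-GFP-negative stroma. Their part in these results was not tested.

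Among the factors, Creb3l1 had 7 and 8 summits in Scf-GFP-positive and 3 and 4 in Scf-GFP-negative stroma (1.01 ± 0.15, n = 2 and 2, adjusted p = 0.00321). Creb3l2, its relative in cartilage secretion, had 12 and 9 in Scf-GFP-positive and 6 and 4 in Scf-GFP-negative stroma, without overlap (1.01 ± 0.37, adjusted p = 0.0786), and passed with all deposited peaks (1.22 ± 0.29, adjusted p = 0.0134). Eif2ak3 (chromosome 6, 70844484 to 70905241) had 1 and 1 in Scf-GFP-positive and 5 and 6 in Scf-GFP-negative stroma (-1.99 ± 0.41, adjusted p = 0.0102), with an adjusted p of 0.0546 without Scf-GFP-negative replicate 2. Chromosome 6, which holds Eif2ak3, Creb3l2 and Edem1, took 6.03% and 5.72% of the Scf-GFP-positive lists and 9.58% and 5.93% of the Scf-GFP-negative ones, and with equal chromosome totals the Eif2ak3 difference was -1.66 (adjusted p = 0.0181). Over 24 alternatives the Eif2ak3 difference ranged from -2.12 to -0.37, and the call was lost in 3. Ern1, with 1 and 3 in Scf-GFP-positive and 4 and 7 in Scf-GFP-negative stroma (-1.34 ± 0.46, adjusted p = 0.0622), Atf6, with 9 and 8 in Scf-GFP-positive and 6 and 5 in Scf-GFP-negative stroma (0.59 ± 0.33, adjusted p = 0.217), and Atf4, with 4 and 2 in Scf-GFP-positive and 3 and 5 in Scf-GFP-negative stroma (-0.39 ± 0.33, adjusted p = 0.415), did not pass.

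Of the stress outputs, Trib3 had 3 and 2 summits in Scf-GFP-positive and 7 and 7 in Scf-GFP-negative stroma (-1.34 ± 0.16, adjusted p = 0.00105), and with all deposited peaks the difference was -0.47 (adjusted p = 0.241). With 2 kb in place of 10 kb on either side the Trib3 difference was 0.37 (adjusted p = 0.234), the opposite direction. Ddit3 had 3 and 2 in Scf-GFP-positive and 6 and 2 in Scf-GFP-negative stroma, which overlap (adjusted p = 0.581).

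Of 8 tested chaperones and co-chaperones, 4 had fewer summits and none had more (genome-wide 16.8% and 13.5% of tested loci). With all deposited peaks none of these 4 passed. The differences were then -1.56 at Dnajc3 (adjusted p = 0.052), -0.69 at Hspa5 (0.427), -0.37 at Creld2 (0.583) and 0.14 at Manf (0.846). Dnajc3, the co-chaperone p58IPK (chromosome 14, 118937932 to 118981702), had 3 and 1 in Scf-GFP-positive and 11 and 8 in Scf-GFP-negative stroma (-2.11 ± 0.62, adjusted p = 0.0380). The Dnajc3 call was lost in 15 of 24 alternatives, among them the fit without Scf-GFP-positive replicate 2. Some of the Dnajc3 regions listed in Scf-GFP-negative stroma lay beyond the gene end, inside the neighbouring gene Uggt2. Hspa5 had 3 and 2 in Scf-GFP-positive and 4 and 6 in Scf-GFP-negative stroma (-0.87 ± 0.25, adjusted p = 0.0368), a call lost in 16 of 24 alternatives, for example without Scf-GFP-negative replicate 2 (adjusted p = 0.157). Creld2 had 1 and 1 in Scf-GFP-positive and 3 and 2 in Scf-GFP-negative stroma (-0.98 ± 0.22, adjusted p = 0.0146; 0.0539 and 0.0526 without Scf-GFP-positive replicates 1 and 2). Manf, a secreted ER stress protein, had 2 and 2 in Scf-GFP-positive and 4 and 3 in Scf-GFP-negative stroma (-0.67 ± 0.14, adjusted p = 0.0103), but 0.14 with all deposited peaks. Manf also held 2 summits in each culture library. These tied counts enter its SE, since all 4 groups share 1 fit. Hsp90b1 had 2 and 2 in Scf-GFP-positive and 3 and 2 in Scf-GFP-negative stroma (adjusted p = 0.581), and Dnajb9, below the filter, 1 and 1 in Scf-GFP-positive and 1 and 4 in Scf-GFP-negative stroma.

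The 5 folding enzymes and lectins had 2 loci with fewer summits (genome-wide 16.8%). Pdia3 had 2 and 3 in Scf-GFP-positive and 7 and 7 in Scf-GFP-negative stroma (-1.34 ± 0.40, adjusted p = 0.0389). The Pdia3 call was lost in 13 of 24 alternatives, among them the fit without Scf-GFP-positive replicate 1. Canx, the membrane lectin calnexin, had 2 and 2 in Scf-GFP-positive and 6 and 5 in Scf-GFP-negative stroma (-1.26 ± 0.23, adjusted p = 0.00708) and kept the call without each single library, but not with all deposited peaks (-1.02, adjusted p = 0.133). Calr, the soluble lectin calreticulin, had 3 and 3 in Scf-GFP-positive and 5 and 6 in Scf-GFP-negative stroma (-0.77 ± 0.31, adjusted p = 0.101). Summed over the 5 genes, the equal lists held 13 and 12 summits in Scf-GFP-positive and 23 and 24 in Scf-GFP-negative stroma.

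Degradation genes went both ways. Edem1 (chromosome 6, 108824045 to 108859356), which hands misfolded glycoproteins to degradation, had 4 and 4 summits in Scf-GFP-positive and 2 and 2 in Scf-GFP-negative stroma (0.85 ± 0.14, adjusted p = 0.00503), and with all deposited peaks the difference was 0.61 (adjusted p = 0.138). Derl1 had 1 and 3 in Scf-GFP-positive and 5 and 5 in Scf-GFP-negative stroma (-1.26 ± 0.33, adjusted p = 0.0261; 0.0810 and 0.0886 without Scf-GFP-negative replicates 1 and 2). With all deposited peaks the Derl1 difference was -0.71 (adjusted p = 0.187). The sum over the 9 degradation genes in the equal lists was 23 and 23 in Scf-GFP-positive and 23 and 25 in Scf-GFP-negative stroma. Herpud1 had 2 and 2 in Scf-GFP-positive and 1 and 1 in Scf-GFP-negative stroma and was not tested, like Derl3 and Edem3. The transport genes Sec24d, with 7 and 3 in Scf-GFP-positive and 3 and 9 in Scf-GFP-negative stroma, and Sec23b, with 5 and 4 in Scf-GFP-positive and 6 and 3 in Scf-GFP-negative stroma, overlapped between the groups.

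**Figure D4:**
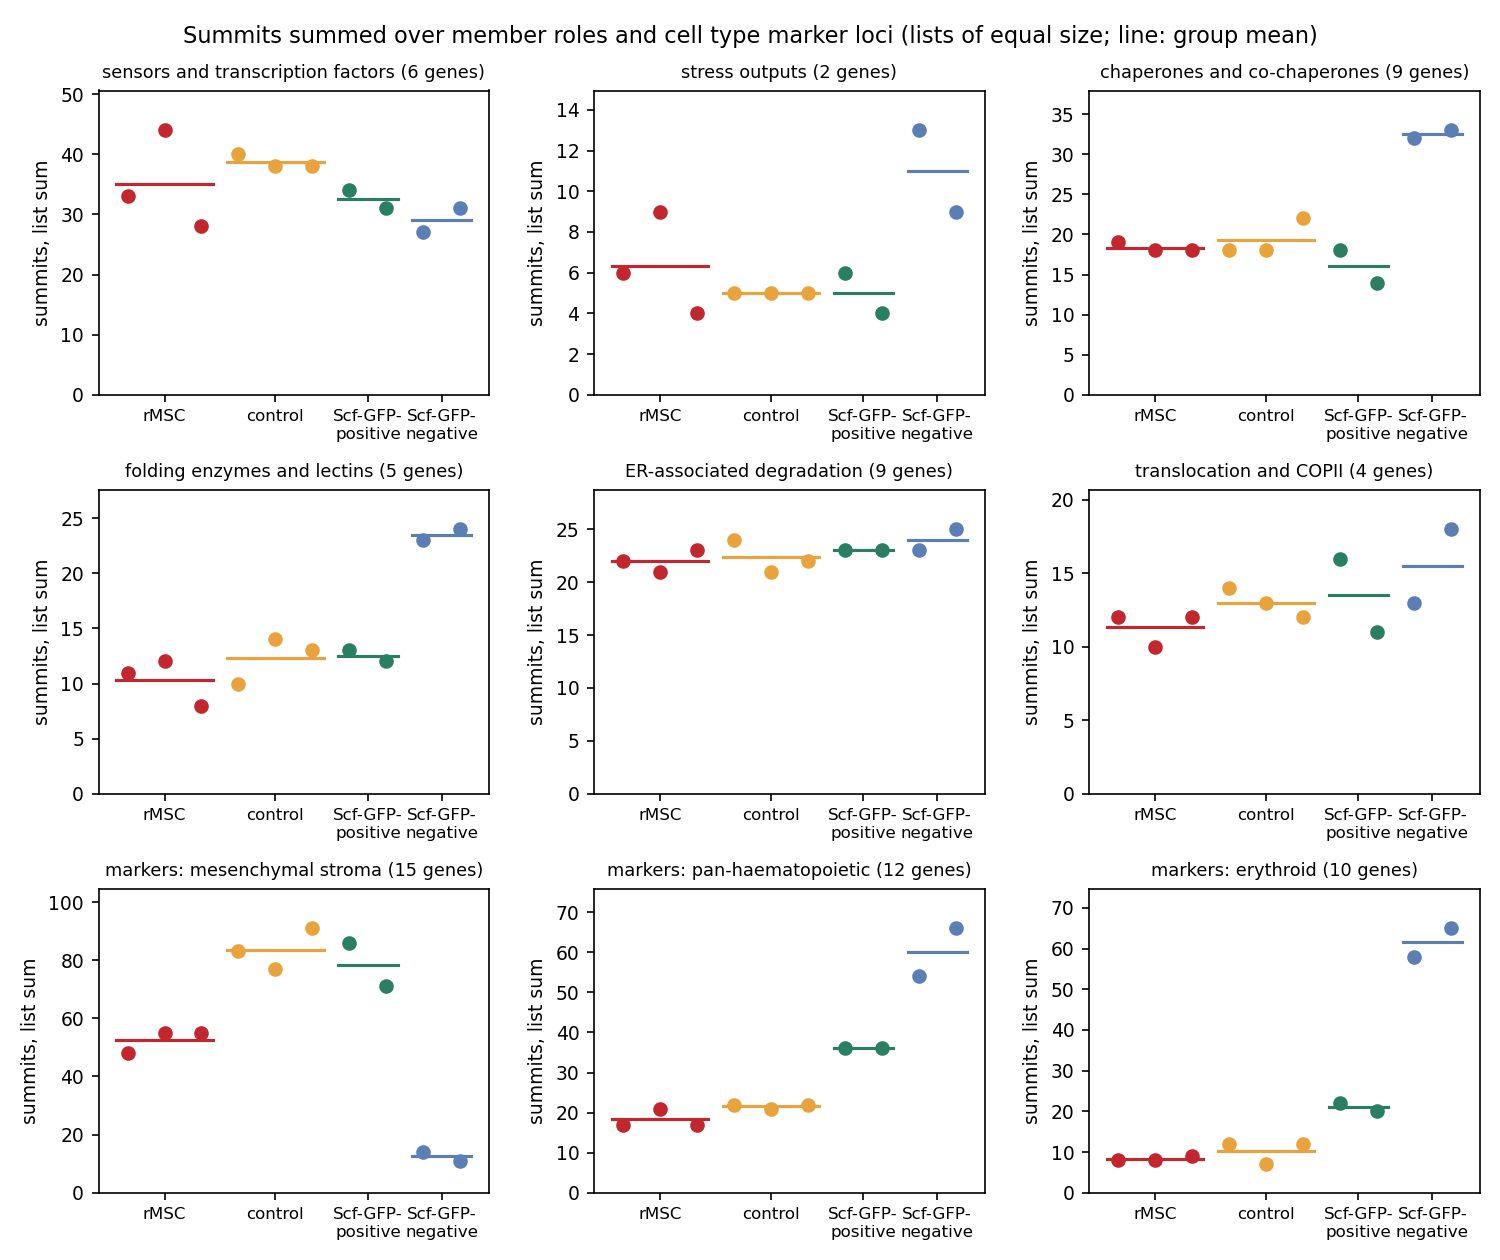
Summits summed over the genes of each role and over 3 marker lists, by library, with a line at the group mean, in lists of equal size. The chaperone and folding sums lie higher in both Scf-GFP-negative libraries (32 and 33, 23 and 24) than in any other library, as do the pan-haematopoietic and erythroid marker sums, while the degradation sum stays between 21 and 25 throughout. Dnajc3 alone holds 11 and 8 of the Scf-GFP-negative chaperone summits. With all deposited peaks, which are not drawn, the chaperone sums of control replicates 2 and 3 are higher than those of both Scf-GFP-negative libraries.

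In regions, 14 were open in both Scf-GFP-positive and neither Scf-GFP-negative list (14.3% of 80875 genome-wide) and 14 the reverse (6.65%). With all deposited peaks the counts were 25 and 8, for which no genome-wide share is given. With 2 libraries a group these counts rest on each of them: leaving out 1 gave 47 to 72 regions in place of 28, and leaving out a Scf-GFP-positive library gave 41 or 43 in place of 22 against rMSC and 42 or 44 in place of 25 against control cultures. The strongest of the first kind, after the Derl3 flank, lay 22492 bases into Creb3l2 (37418970 to 37420116, mean −log10 p 28.21 over the lists with a peak, which include the 3 control lists and 1 rMSC list) and 15285 bases into Edem1 (108843260 to 108844576). The Edem1 region had a −log10 p of 19.82, 34.74 and 27.75 in rMSC, 32.96, 21.89 and 30.93 in control cultures and 24.66 and 17.22 in Scf-GFP-positive stroma, and no peak in Scf-GFP-negative stroma. Among those of the second kind, a region 3222 bases before the Trib3 start (152346994 to 152347678, mean −log10 p 22.61) was listed in the Scf-GFP-negative libraries alone, and with full lists in both Scf-GFP-positive libraries too. Among the 72 further pathway loci 3 had more summits in Scf-GFP-positive stroma and 15 had fewer, against 13.5% and 16.8% of loci genome-wide. Their median log2 difference was -0.42, against -0.22 over all tested loci. Those with fewer include Ero1a (1.0 in Scf-GFP-positive and 3.5 in Scf-GFP-negative stroma on average, -1.40, adjusted p = 0.00241), Os9, a lectin of degradation (3.0 in Scf-GFP-positive and 9.5 in Scf-GFP-negative stroma, -1.57, adjusted p = 0.00537), and Stt3b, an oligosaccharyltransferase subunit (1.0 in Scf-GFP-positive and 5.5 in Scf-GFP-negative stroma, -1.95, adjusted p = 0.00536). Those with more include Creb3l4, another Atf6 relative (6.0 in Scf-GFP-positive and 3.5 in Scf-GFP-negative stroma, 0.71, adjusted p = 0.0147), and Kdelr3, a retrieval receptor (2.5 in Scf-GFP-positive and 0.5 in Scf-GFP-negative stroma, 1.77, adjusted p = 0.0302).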

How the data were processed

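Reads were handled with BWA and MACS2 on mm10, per the submitters' processing notes, which name neither version nor setting. The deposited peak lists, 1 per library, give each peak's fold enrichment (a ratio), −log10 p and −log10 q and a score (the −log10 q times 10, cut to a whole number); these are the authors' values and were used to rank, filter or describe peaks. The −log10 p depends on the library, so values of different lists are not compared by a test. Sequencing depth is unknown, and counts of peaks carry no counting interval.

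Summits on chromosomes 1 to 19 and X were counted per locus with gene positions of RefSeq GRCm38.p6 (mm10 coordinates, 1-based; exons and introns were not resolved). A locus can hold peaks of a neighbouring gene, and 29 of the 35 windows overlapped at least 1 other gene. Lists were reduced to 39912 peaks, the size of the shortest. limma 3.58.1 was run on log2(summits + 0.5) in R 4.3.3 with a trend, all 4 groups in 1 fit (6 residual and 1.57 prior degrees of freedom), over the 9094 loci that averaged 2 or more summits, two-sided, Benjamini-Hochberg adjusted. The log2 scale understates changes of low counts, and a p that misses 0.05 does not show equality. Promoter peaks and regions were counted without a test.

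The genes, lists and roles were chosen with earlier results of these data known. The naming rule takes every locus that passes (at most 12 per comparison by size of change), 12 fixed genes and Xbp1 whatever their p, and up to 5 regions per comparison by mean −log10 p. Of these regions, 1 is not reported here. Other regions, further pathway genes and loci apart in the full lists were chosen after their values were seen. Replicate numbers are shared between groups, and replicate 1 of each group was run on another flow cell than the rest. Alternatives were other lists, filters, windows, scalings and fits and each library left out.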

Additional observations from a re-analysis of the deposited data

How the results depend on the processing

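Of the 35 loci, the number called in rMSC against control cultures was 1 in the fit reported, 0 with all deposited peaks, 2 with a −log10 q of at least 5, 2 by bases covered, 3 with only the 2 groups, 0 with flow cell as a term and 0 with equal chromosome totals. The shares of all loci called were 2.57%, 0.341%, 3.25%, 9.63%, 5.53%, 1.13% and 1.63%, in the same order. Against Scf-GFP-positive stroma rMSC had 2 calls, and 1 with all deposited peaks (Eif2ak3) and 1 with equal chromosome totals (neither Creld2 nor Creb3l1), and 3 each with a −log10 q of at least 5, by bases covered, with the nearest gene, with a mean of at least 1 summit and with no filter. Of all loci, 14.9%, 8.76%, 14.4%, 15.5%, 20.9%, 12.9%, 12.5% and 13.7% were called, in the same order. Control cultures had 0, and 2 with a −log10 q of at least 5 and 1 each with a mean of at least 1 summit, no filter, the nearest gene or only the 2 groups. Here 12.0%, 13.7%, 9.96%, 10.3%, 9.75% and 9.73% of all loci were called, in the same order. Scf-GFP-positive against Scf-GFP-negative stroma had 11, and 4 with all deposited peaks, 6 by bases covered, 3 with only the 2 groups and 6 when centred on the median, where all loci split 1432 higher to 917 lower, against 1227 to 1528. The shares of all loci called were 30.3%, 19.8%, 31.1%, 10.3% and 25.8%, in the same order. Giving loci of 1 mean level the same spread, chosen after seeing the data, gave 7, 8, 7 and 15 calls in the 4 comparisons, while 30.4% to 57.6% of all loci were called. Leaving out 1 library gave 0 to 3, 1 to 4, 0 to 2 and 6 to 10 calls. For the fits with a library left out, the share of all loci is not given. The cause of these shifts was not tested.

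With the replicate number as a block the calls were 0, 2, 0 and 10, where 0.572%, 7.65%, 4.68% and 26.1% of all loci were called. Residuals of same-numbered libraries correlated between -0.0234 and 0.0228. Counts per locus are small, so these values cannot show whether same-numbered libraries were paired. Reversed were Trib3 with 2 kb windows (0.37) and Manf with all deposited peaks (0.14), both in Scf-GFP-positive against Scf-GFP-negative stroma. Promoter peaks averaged 28.5 genes in Scf-GFP-negative stroma with a −log10 q of at least 5, against 29. Regions open in all lists of rMSC or Scf-GFP-positive stroma and none of the other numbered 35 with all deposited peaks, against 22, and leaving out 1 library gave 24 to 43 there, 25 to 44 for control cultures and 47 to 72 between the fresh groups. Depth is unknown, and groups of 2 and 3 libraries limit what these tests can detect.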
